A study of Mus musculus with 4 samples.

Results

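The oligoadenylate synthetase (OAS) family of the mouse was followed across 4 expression arrays of tumor cells kept for 24 h in vehicle or in interferon gamma (IFN-γ). The family is represented by 8 genes, namely Oas1a, Oas1b, Oas1c, Oas1g, Oas2, Oas3, Oasl1 and Oasl2, out of 20140 genes that could be named on the arrays. They were found as the probes whose RefSeq accession belongs to these genes: 9 probes matched 7 of them, and no accession matched Oas1b, which RefSeq lists as a transcribed pseudogene in the C57BL/6J reference genome, so it has no value here. The table named no gene for 12848 of the 39429 gene probes, and whether any of them measures Oas1b is not settled. The 4 groups were AB1-HA cells with vehicle, AB1-HA cells with IFN-γ, LLC cells with vehicle and LLC cells with IFN-γ. AB1-HA cells come from a BALB/c mesothelioma and express the hemagglutinin of influenza virus, and LLC cells (titled 3LL in the labels) come from the Lewis lung carcinoma, of strain C57BL6. Each group held 1 array, so no test was possible, no difference below has a replicate check, and having so few arrays limits precision. The lines differ in strain, tumor type and carried antigen at once, and these cannot be told apart in any comparison of the lines.

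OAS enzymes sense double-stranded RNA, a mark of viral infection, and then join ATP into short chains of adenylate with 2′-5′ bonds, known as 2-5A. 2-5A is a second messenger of the antiviral response and is later broken down again. OAS genes are classical interferon-stimulated genes: type I interferon acts on them through a complex that includes STAT2 and IRF9 and binds the interferon-stimulated response element (ISRE), while IFN-γ acts through STAT dimers at the gamma-activated site (GAS) and through IRF1 and other induced factors. In the mouse, the single human OAS1 gene has a cluster of Oas1 counterparts, and the OAS-like genes Oasl1 and Oasl2 encode proteins that end in ubiquitin-like domains.

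The promoters of Oas1a, Oas1g, Oas1c and Oas3 are shown because they hold the motif letters searched for and belong to genes that were higher with IFN-γ in at least 1 line. Each line gives the 150 bases before the gene start, 5′ to 3′, from RefSeq's sequences of build GRCm38.p6, with matches to the ISRE core (TTTC, any 2 bases, TTTC) or the GAS core TTCNNNGAA on either strand in capitals.
Oas1a (chr5:120907526-120907675, minus strand): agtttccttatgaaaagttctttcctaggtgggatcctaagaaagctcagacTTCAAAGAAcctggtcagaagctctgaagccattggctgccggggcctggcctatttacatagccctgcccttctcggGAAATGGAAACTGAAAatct
Oas1g (chr5:120887614-120887763, minus strand): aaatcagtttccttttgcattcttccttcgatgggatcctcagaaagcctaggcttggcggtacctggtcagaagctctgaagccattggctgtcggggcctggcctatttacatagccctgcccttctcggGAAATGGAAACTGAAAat
Oas1c (chr5:120812515-120812664, minus strand): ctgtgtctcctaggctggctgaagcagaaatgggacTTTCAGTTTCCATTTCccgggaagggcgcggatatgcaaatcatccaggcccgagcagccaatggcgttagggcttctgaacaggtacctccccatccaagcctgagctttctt
Oas3 (chr5:120777660-120777809, minus strand): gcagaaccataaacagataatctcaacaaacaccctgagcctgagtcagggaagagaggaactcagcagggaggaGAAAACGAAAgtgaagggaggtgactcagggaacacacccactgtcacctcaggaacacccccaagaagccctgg
Oas1a and Oas1g share an overlapping pair of ISRE core matches on the minus strand of the window, of which the first starts 20 bases before the start of Oas1a and 18 bases before that of Oas1g. Their 150-base windows were identical in 129 of 155 aligned columns (83.2%). Oas1c has an overlapping pair 114 bases before its start, and Oas3 a single match 75 bases before its start. Oas1a alone holds a GAS core match, 98 bases before its start. In the windows of Oasl1 and Oasl2, from 250 bases before to 50 after the start, neither set of letters was found. The same held for Oas1f and Oas1h, which are Oas1 cluster genes outside the 8. Oas1f had gains with IFN-γ of 8.09-fold in AB1-HA and 35.3-fold in LLC. The table used had promoters for 6 of the 8 genes. Among 32851 promoter windows of the same 300 bases, 3.44% held the ISRE core and 8.3% the GAS core. A match describes letters and not a bound site.

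On the arrays, 57.5% to 58.2% of 39429 gene probes were well above background, and no gene spot was saturated. Signals are processed intensities as the scanner software gave them, each followed by that software's error estimate, which describes 1 spot and neither culture nor labelling. Array signals at the 75th percentile were between 1380 and 1598 intensity units, and differences were taken on the log2 scale after each array was scaled to that percentile. A gene was counted as higher or lower at 2-fold or more, a threshold of size. Where a gene was not well above background on 1 array of a comparison, the difference is a bound, written "at least", taken against its own signal there or the dimmest probe well above background on that array, whichever was higher. Probes differ in brightness, so levels are compared within a probe and never between genes. Close relatives such as the Oas1 genes may share signal through cross-hybridisation, which was not tested, and their values are uncertain to that extent. As a check of the labelled cell types, the mesothelial markers Wt1, Upk3b, Lrrn4 and Calb2 and the lung epithelial markers Sftpc, Nkx2-1, Epcam and Cdh1 lacked a signal well above background throughout. Of the whole lists, 4 to 5 of 9 mesothelial and 1 to 2 of 8 lung epithelial markers were well above background per array, and the summed mesothelial signal was higher in LLC (144902 with vehicle) than in AB1-HA (62833), so these lists do not set the lines apart as labelled. The leukocyte markers Ptprc, Adgre1 and Lyz2 were not well above background on any array either, and 4 of 8 leukocyte markers were on each array, with summed signals over the list of 5069 to 5494 intensity units on all 4 arrays. Of 6 fibroblast markers, 5 to 6 were well above background per array, with summed vehicle signals of 117470 in AB1-HA and 54820 in LLC.

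The first comparison set AB1-HA cells with IFN-γ against AB1-HA cells with vehicle. All 7 measured members were higher with IFN-γ by 2-fold or more, from Oasl1 at 2.03-fold to Oasl2 at 30.6-fold. The share of all named genes past 2-fold was 2.98% higher and 1.17% lower. The median log2 difference was 3.18 over the members, with Oas1g at its bound, and −0.08 over all 13208 genes. In LLC cells, the second comparison, each of the 6 members with a value passed 2-fold upward, from Oas1c at 2.17-fold to Oasl2 at no less than 749-fold. Over all genes the shares were 3.58% higher and 1.36% lower, and the medians were 5.11 over the members, with Oas2 and Oasl2 at their bounds, and −0.06 over all 13392 genes. The member medians of the lines cover different members. Without bounds they were 3.71 over 6 members in AB1-HA and 3.10 over 4 in LLC. Among the genes measured on both arrays of a line, Oas1a had the 15th largest gain of 12884 in LLC and the 103rd of 12700 in AB1-HA.

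**Figure D1:**
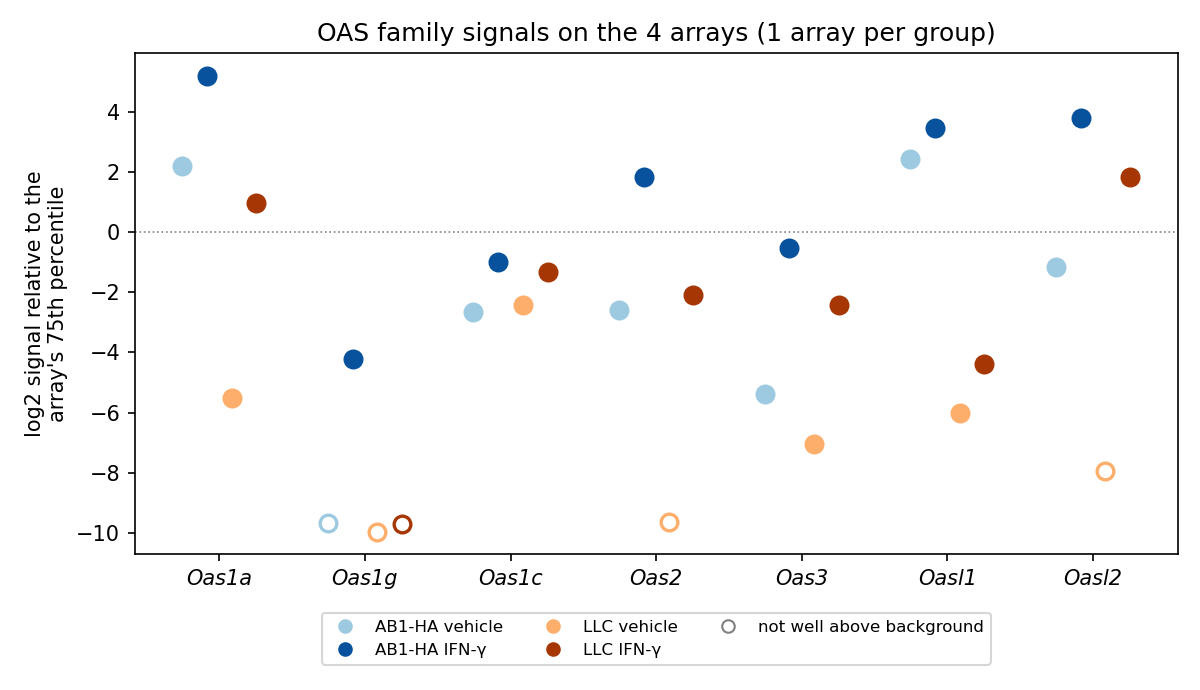
Signal of each measured OAS gene on the 4 arrays, as log2 of the processed signal relative to the array's 75th percentile; each point is 1 array, and open points are not well above background. Within a gene, AB1-HA points lie above LLC points of the same treatment except for Oas1c with vehicle. Oas1g with vehicle is not well above background in either line, so the order of its vehicle points is not read. Heights are not comparable between genes.

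Oas1a, which encodes an enzymatically active 2-5A synthetase, had signals of 6348 ± 635 with vehicle and 51780 ± 5178 with IFN-γ in AB1-HA, and of 34.9 ± 4.35 and 2702 ± 270 in LLC. All 4 arrays were well above background, and LLC cells with IFN-γ stayed below AB1-HA cells with vehicle. The gain was 7.93-fold in AB1-HA (log2 2.99 ± 0.20, scanner error) and 88.3-fold in LLC (6.46 ± 0.23). A second, dimmer Oas1a probe had signals of 793 and 7420 in AB1-HA and 428 with IFN-γ in LLC, while its LLC vehicle signal of 5.35 was not well above background. Its gains were 9.11-fold in AB1-HA and at least 64.8-fold in LLC, so both probes had the larger gain in LLC. With normexp background correction, which adds an offset of 50 intensity units, the LLC log2 gain of the brighter probe was 4.16.

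Oas1g encodes another active Oas1 synthetase of the mouse. Its brighter probe gave 77.1 ± 7.86 on the AB1-HA IFN-γ array, and 1.72, 1.62 and 1.68 on the AB1-HA vehicle, LLC vehicle and LLC IFN-γ arrays, none of them well above background. The signal with IFN-γ in AB1-HA thus stood alone, with a gain of at least 9.08-fold. The other Oas1g probe was not well above background on any array, at 1.59 to 1.77, and did not show the gain. With the mean over both probes, the log2 bound in AB1-HA was 0.38, short of 2-fold.

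Oas1c, a further member of the Oas1 cluster, had signals of 218 ± 21.9 and 709 ± 70.9 in AB1-HA and 297 ± 29.8 and 564 ± 56.4 in LLC, vehicle first. It was the member whose lines lay closest together: the vehicle levels of the lines were within 2 combined scanner errors of each other, and so were their IFN-γ levels. The gains were 3.16-fold in AB1-HA and 2.17-fold in LLC. The LLC gain was not past 2-fold with array median scaling (log2 0.97, where the median over all genes was −0.20) or with normexp (0.78).

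Oas2, whose protein has 2 OAS units, had signals of 230 ± 23.1 and 5084 ± 508 in AB1-HA. In LLC it was at 2.0, not well above background, with vehicle and at 326 ± 32.6 with IFN-γ. The gain was 21.5-fold in AB1-HA and at least 49.2-fold in LLC, where the log2 bound was 5.62, or 2.61 with normexp. Oas3, the largest family member, had signals of 33.2 ± 4.33 and 978 ± 97.8 in AB1-HA and of 12.3 ± 4.16 and 259 ± 25.9 in LLC. The 2 IFN-γ arrays were both far above the 2 vehicle arrays. Its gains were 28.7-fold (log2 4.84 ± 0.24) and 24.1-fold (4.59 ± 0.51), or 2.49 and 1.47 on the log2 scale with normexp.

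In AB1-HA the OAS-like genes had the largest and the smallest gain of the measured members. Oasl2, a mouse OAS-like protein that keeps synthetase activity, had signals of 624 ± 62.4 and 19614 ± 1961 in AB1-HA and of 6.57 (not well above background) and 4955 ± 496 in LLC. The gains were 30.6-fold and at least 749-fold, the highest value for a member in either line. The LLC log2 bound was 9.55, or 5.49 with normexp. Oasl1, which has no synthetase activity and in the mouse holds back the translation of Irf7 mRNA, had signals of 7424 ± 742 and 15489 ± 1549 in AB1-HA and of 25.0 ± 4.03 and 67.2 ± 6.94 in LLC. Both AB1-HA arrays were far above both LLC arrays, whatever the treatment. Its gains were 2.03-fold (log2 1.02 ± 0.20) and 3.06-fold (1.62 ± 0.28), and with normexp the LLC gain was short of 2-fold (0.73). The AB1-HA gain lay between 1.01 and 1.09 under the alternatives tried, just past the threshold throughout.

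**Figure D2:**
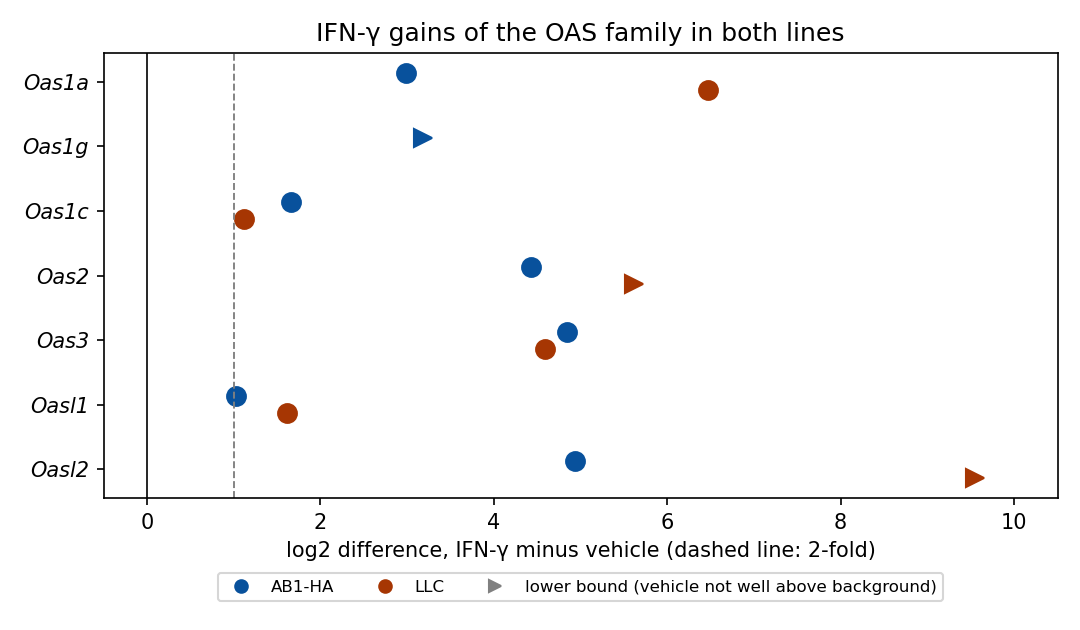
Log2 difference between the IFN-γ and vehicle arrays for each measured OAS gene in AB1-HA (blue) and LLC (brown), 1 array per group; circles are measured differences, triangles lower bounds, and the dashed line marks 2-fold. Oas1a is at 2.99 in AB1-HA and 6.46 in LLC, Oas3 at 4.84 and 4.59, and Oas1g has no value in LLC.

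The third comparison asked how the lines differed at rest, with vehicle. Of the 6 members with a value, 5 were at least 2-fold lower in LLC than in AB1-HA, and none was higher, against 15.9% lower and 16.4% higher among 13836 genes. Oasl1 was 344-fold lower in LLC (log2 −8.43 ± 0.27) and Oas1a 210.4-fold lower (−7.72 ± 0.23), which placed them 15th and 22nd from the lowest of 12193 genes measured on both vehicle arrays. Oasl2 and Oas2 were at least 95.7-fold and 35.3-fold lower in LLC, where neither was well above background. Oas3 was 3.13-fold lower (−1.65 ± 0.52), and with normexp this was −0.38 and within 2-fold. Oas1c was 1.18-fold higher in LLC (log2 0.23 ± 0.20). The member median was −5.86, with Oas2 and Oasl2 at their bounds, and −0.05 over all genes. With normexp the gaps were narrower for Oasl1 (−6.04) and Oas1a (−5.36), and the bounds were −2.78 for Oasl2 and −2.35 for Oas2. The member median was then −2.56, with Oasl2 and Oas2 at their bounds. With normexp 4 of 6 members were lower, beside 1410 of 13631 genes.

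With IFN-γ on both sides, 6 of 7 members were at least 2-fold lower in LLC than in AB1-HA, and none was higher, against 13.1% lower and 15.4% higher among 13879 genes. The gap was smaller than at rest for Oas1a (18.9-fold), for Oas2 (15.4-fold) and for Oasl2 (3.91-fold), nearly as wide for Oasl1 (228-fold), and 3.73-fold for Oas3. With normexp the Oas2 gap was −3.44 with IFN-γ against a bound of −2.35 at rest, so which was wider was not settled. Oas1g was at least 9.37-fold lower in LLC. Its log2 bound fell short of 2-fold with normexp (−0.63) and with the mean over its probes (−0.43), which left 5 of 7 members counted as lower. Over all genes, 1210 of 13683 were lower with normexp and 1817 of 13763 with the mean over probes. Oas1c was 1.24-fold lower. The median was −3.23 over the members and 0.03 over all genes.

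**Figure D3:**
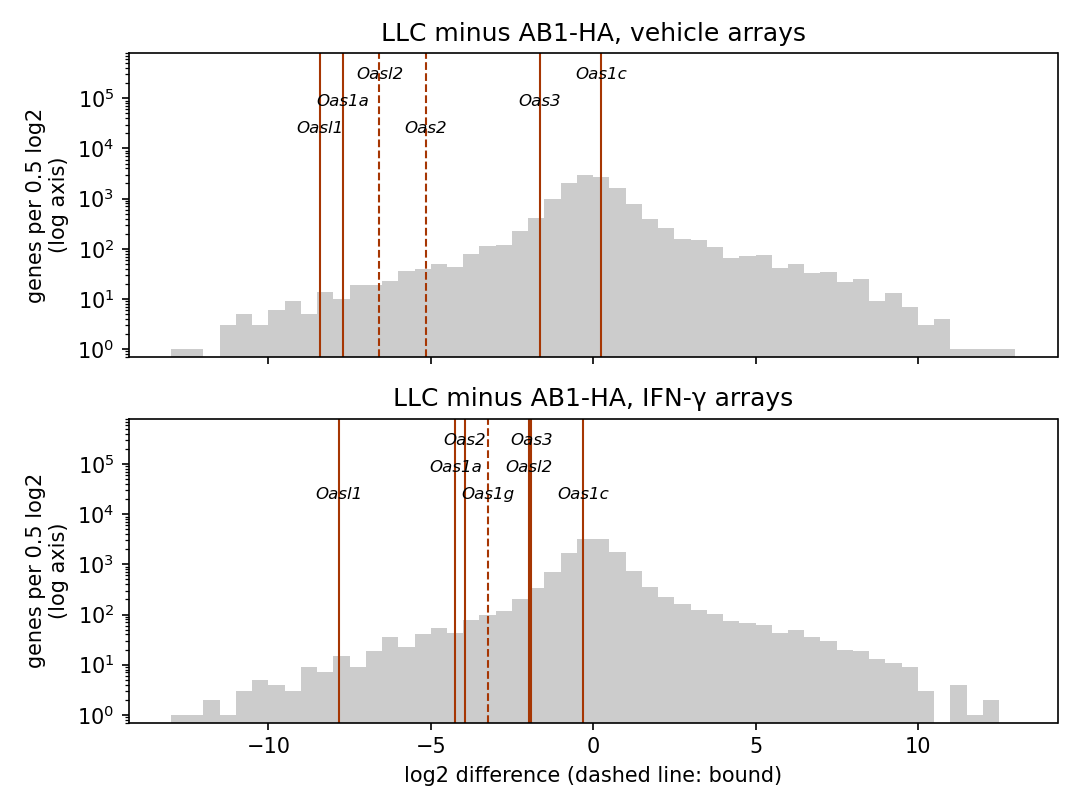
Histograms of the log2 difference LLC minus AB1-HA over all named genes with a value, for the vehicle arrays (top) and the IFN-γ arrays (bottom), with the number of genes per bin on a log axis; vertical lines mark OAS genes, dashed where the difference is a bound. Except for Oas1c, every marked gene lies left of −1.

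IFN-γ treated LLC cells were also set against untreated AB1-HA cells, for the 6 members well above background on both arrays. The share of all genes was not computed for this comparison, so the members are given singly and not counted. Oasl2 and Oas3 were 7.83-fold and 7.68-fold higher in treated LLC than in untreated AB1-HA, and Oas1c was 2.55-fold higher. Oas2 was 1.39-fold higher and so within 2-fold (log2 0.48 ± 0.20, or 0.26 with normexp). Oas1a was 2.38-fold lower in treated LLC, or 1.88-fold lower and within 2-fold by its dimmer probe, and Oasl1 was 112-fold lower. With normexp the signs were the same for all 6, and Oas3 was at 1.09 instead of 2.94. From high to low, the order for Oas1a and Oasl1 was therefore AB1-HA with IFN-γ, AB1-HA with vehicle, LLC with IFN-γ and LLC with vehicle. For Oas2, Oas3 and Oasl2 both IFN-γ arrays came first, with AB1-HA ahead of LLC in each treatment.

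Differences between the gains of the lines could be measured for the 4 members that were well above background on all arrays. Only Oas1a passed 2-fold among them, with a gain 11.1-fold larger in LLC (log2 3.48 ± 0.31), while among 11985 genes 2.54% had a gain at least 2-fold larger in LLC and 1.69% in AB1-HA. This was the 7th largest difference toward LLC, and it was 1.17 with normexp. Oasl1 (0.59 ± 0.34), Oas3 (−0.25 ± 0.56) and Oas1c (−0.55 ± 0.29) were within 2-fold. The difference for Oas3 was −1.03 with normexp, just past 2-fold toward AB1-HA, and that for Oasl1 turned to −0.29. For Oas2 and Oasl2 the lines' own values stand side by side above, with a measured gain in AB1-HA and a larger bound in LLC. With normexp Oas2 had a measured gain of 3.71 in AB1-HA and a lower bound of 2.61 in LLC, so the order was not settled there. Because each gain subtracts its own vehicle array, the low vehicle level of LLC enters both the difference at rest and the difference of gains.

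The family lies on chromosome 5 in a pair of groups. In RefSeq's gene order, Oasl2 and Oasl1 are neighbours but for 1 predicted gene, and the other group runs Oas2, Oas3, Oas1e, Oas1c, Oas1b, Oas1f, Oas1h, Oas1g, Oas1a, a pseudogene and Oas1d. Gains did not follow this order. Oas2 and Oas3 at one end had log2 gains above 4 in both lines. With normexp these were 1.47 to 3.71, and Oas2 in LLC was at its bound both times. Oas1e and Oas1c next to Oas3 had 1.11 to 1.66, and Oas1a near the other end had 2.99 and 6.46. Of the cluster genes outside the 8, Oas1f had signals of 2810 and 23359 in AB1-HA and of 39.4 and 1219 in LLC, with gains of 8.09-fold and 35.3-fold. With normexp its log2 gains were 2.98 and 3.14, and their difference went from 2.13 to 0.16. Oas1e, at 17.0 to 56.5 intensity units, had log2 gains of 1.63 and 1.48, which with normexp were 0.80 and 0.48. Oas1d stayed within 2-fold at −0.34 and 0.54, and Oas1h was not well above background on any array.

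**Figure D4:**
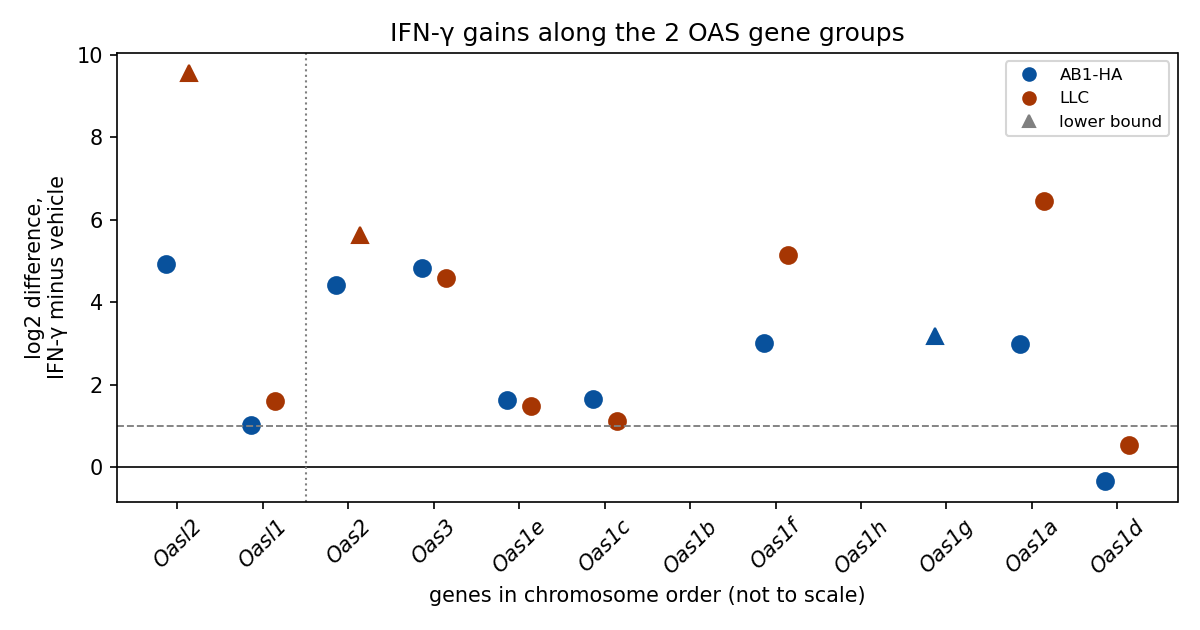
Log2 difference between IFN-γ and vehicle arrays for the OAS genes in chromosome order, AB1-HA in blue and LLC in brown, with triangles for lower bounds and the dashed line at 2-fold; the dotted line separates the Oasl group from the Oas cluster, and distances are not to scale. Oas1b has no matched probe and Oas1h no signal above background; Oas1d, at −0.34 and 0.54, is the measured gene that stays within 2-fold in both lines.

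The genes that act with the family were described from a list of 25, of which 23 had a named probe. With IFN-γ in AB1-HA, 14 of the 21 that had a value were higher by 2-fold or more and none was lower, and in LLC 13 of 22 were higher and none lower, beside 2.98% and 3.58% of all genes higher. Pde12, a phosphodiesterase that degrades 2-5A, and Abce1, an ATPase of ribosome recycling that has also been tied to the 2-5A system, stayed within 2-fold in all of the comparisons, between −0.74 and 0.75 on the log2 scale.

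Among the upstream factors, Stat2 had gains of 14.1-fold in AB1-HA and 8.76-fold in LLC, Irf9 of 5.77-fold and 9.38-fold, and Irf1 of 21.8-fold and 21.6-fold. Stat2 and Irf1 were within 2-fold between the vehicle arrays (log2 0.22 and 0.24), whereas Irf9 was 2.82-fold lower in LLC. Irf7, the interferon regulatory factor whose translation Oasl1 restrains, had signals of 273 ± 27.4 and 1817 ± 182 in AB1-HA and of 4.35 (not well above background) and 230 ± 23.1 in LLC. It was thus at least 41.8-fold lower in LLC at rest, where most OAS genes were lower too. The log2 bound was −5.39, or −1.95 with normexp. Irf8 went the other way, with 1296 and 4620 in LLC and no signal well above background in AB1-HA. At rest its log2 bound was 7.08 toward LLC, or 4.17 with normexp. Between the vehicle arrays 8 of 22 list genes were lower in LLC and 3 higher, with a median of −0.22, beside 15.9% lower and 16.4% higher over all genes. The ubiquitin-like modifier Isg15 (14.3-fold lower) and the RNA sensor Ifih1 (at least 28.2-fold lower) were among the lower ones, while the RNA helicase Dhx58 was within 2-fold (0.46). With normexp the log2 bound for Ifih1 was −1.77.

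The genes most like each member in pattern were sought among 11985 genes well above background on all 4 arrays, by the Euclidean distance between log2 values centred on each gene's mean over the arrays. With 4 arrays this is a description of likeness. Nearest to Oas1a were its relative Oas1f (distance 1.15), Phf11d (1.45) and Apol9b (1.67). Nearest to Oas3 were Tap1 (0.45), Tapbpl (0.63) and Mndal (0.70), and nearest to Oas1c were Flt3l (0.08), Trafd1 (0.14) and Cenpj (0.20). Oasl1 was nearest to Slit2 (0.81), Ifi27l2a (0.82) and App (1.13), all of them far lower in LLC than in AB1-HA on both arrays (log2 −9.07 to −7.67 with vehicle). App and Slit2 had gains under 2-fold in both lines, of 0.32 to 0.64 on the log2 scale.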

How the data were processed

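Messenger RNA of 4 cultures was measured on 1-colour (Cy3) Agilent arrays of 1 slide, 1 per group. Per the file headers, Feature Extraction 10.7.1.1 made the deposited intensity values; the processed signal is background-subtracted and not normalized between arrays. The authors' deposited value table holds log2 values; compared with scaled signals after each probe was centred, all 4 columns had r = 0.999 (rounded) in the same direction, and its column medians were 0.11 and −0.08 (AB1-HA vehicle, IFN-γ) and −0.13 and 0.08 (LLC). The steps behind it are not given in the sources used here.

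Control spots and outlier-marked spots (166 to 201 per array) were left out, spots of a probe averaged, and log2 signals scaled by subtracting the 75th percentile of the array. Probes were named by accession through a RefSeq table of GRCm38.p6, used for names and neighbours (26581 of 39429 probes); the brightest probe stood for a gene. A probe was well above background where at least 0.5 of its spots were marked so; the lowest such signals were 7.53 to 8.26 intensity units. The calling step was tested on simulated arrays: it called 100% of 100 genes set to a log2 change of 1.5 in AB1-HA (12915 genes run) and in LLC (13197 genes run). Spot noise alone was simulated and every gene was set as well above background. This checks the computation and does not cover dim probes.

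The genes named were the members, up to 10 list genes with the largest differences plus 5 set genes, and 3 nearest genes per member; Oas1d, Oas1e and Oas1h were named after their values were seen. Some listed genes are not reported here. The members and lists were chosen with earlier results of these data known. Alternatives covered scaling, normexp (on median signals, since mean signals were not used here), the authors' table, background filters, probe averaging and outlier spots. A planned protein comparison was not run. Python 3.11.15, numpy 2.4.6, pandas 2.3.3 and matplotlib 3.10.9 were used, and limma 3.58.1 in R 4.3.3 ran the normexp, quantile and loess alternatives.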

Additional observations from a re-analysis of the deposited data

Results flagged for a closer look

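Oas1d and Pde12 had differences of opposite sign in the lines. Oas1d was at −0.34 in AB1-HA and 0.54 in LLC, and Pde12 at −0.40 and 0.15, as log2 differences between the IFN-γ and vehicle arrays. All 4 values were within 2-fold, each rests on 1 array per group, and the difference between the lines was not tested.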

How the results depend on the processing

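No paired analysis was possible because each group held 1 array. Of the member counts and medians recomputed under the alternatives, 131 stayed within 1.5 times the count or on the same side of 2-fold, which does not mean the same size, and 4 did not. Over genes well above background on both vehicle arrays alone, 3 of 4 members were lower in LLC instead of 5 of 6, since the bounds of Oas2 and Oasl2 drop out. Of all genes so filtered, 1683 of 12193 were lower. For the difference of gains, normexp gave 1 member with the larger gain in AB1-HA (Oas3) where none had it, beside 76 of 11985 genes. Without a background filter 3 members had the larger gain in LLC and 1 in AB1-HA, over 7 members with 3 of them near background on at least 1 array. Over all 20066 genes, 599 then had the larger gain in LLC and 350 in AB1-HA. Among single-gene values 1188 stayed on the same side of 2-fold, 22 were no longer past 2-fold, 2 were newly past it and none past 2-fold turned sign. Normexp adds a fixed offset, which narrows differences of dim probes, and it was run on median signals. Under it 4 of 6 members in LLC were at least 2-fold higher with IFN-γ than with vehicle, beside 254 of 13262 genes. The medians of gains were 2.49 in AB1-HA and 2.04 in LLC, with bounds included. Array median scaling moved the median LLC gain of all genes from −0.06 to −0.20. Of the genes past 2-fold in LLC, 72.5% were higher, against 55.9%, 61.3%, 56.2% and 92.4% with array median, quantile, loess and normexp, and in AB1-HA 71.9% against 92.9% with normexp. For the difference of gains it was 60.0%, against 39.9%, 47.9% and 36.2% with the 3 other scalings. Signals under about 8 intensity units could not be measured, which limits Oas1g, Oas2 and Oasl2.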
